A study of Mus musculus with 31 samples.

Results

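The Ifi200 cluster is a run of related, interferon-inducible genes on mouse chromosome 1. Its members Aim2, Ifi213, Ifi209, Ifi207, Ifi204, Mndal, Ifi211, Ifi203, Ifi202b and Ifi205 are described here, 10 genes of the 55492 rows of the gene count table, each found by its symbol. All 10 were among the 22172 rows with enough reads to be tested. The family was chosen by its differences between the genotypes in these same libraries, so its genotype values are a description with no test, and only the responses to treatment were tested. Those tests share libraries with the genotype values.

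The libraries hold bulk RNA of bone marrow cells sorted as LT-HSCs, long-term haematopoietic stem cells (lin- Kit+ Sca1+ CD150+ CD48-). All groups carry SclCre, the JAK2-V617F transgene FF1 and GFP (VF), and the other genotype carries in addition a deletion of Dnmt3a, a DNA methyltransferase (VFDM, labelled Dnmt3Δ/Δ). The animals were WT recipients of mutant marrow mixed with a 10-fold excess of WT marrow, treated from 4 weeks after transplantation for 8 weeks with vehicle (V), weekly pegylated interferon alpha at 25 µg/kg (IFN), daily 5-azacytidine at 2 mg/kg (AZA), or both (COMBO). There were 4 libraries in each of the 8 groups except VFDM COMBO with 3, which are named by their label numbers 2, 3 and 4. The labels name no GFP gate for the sort, so a library may hold WT cells as well as mutant ones, and they do not say that each library is a separate animal, so p-values measure only the spread between libraries.

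Proteins of this family (PYHIN proteins) pair a pyrin domain, which binds other pyrin proteins, with HIN domains, which bind DNA. AIM2 senses double-stranded DNA in the cytosol and assembles an inflammasome. IFI204 is a DNA sensor and transcriptional regulator related to human IFI16. MNDAL is named for its likeness to the human myeloid nuclear differentiation antigen. The Ifi202b product lacks the pyrin domain and can hold AIM2 back. Many genes of the cluster are induced by interferon through factors that bind a sequence element in their promoters, and copy number and level in the cluster are known to vary between mouse strains. The labels give no strain for either genotype.

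Total counts ranged from 17782394 to 73910928 per library and detected rows from 17087 to 28851. All 8 groups were fitted together with 1 estimate of spread per gene and 23 residual degrees of freedom. The 14 LT-HSC markers were at a mean level of 1 or more CPM (counts scaled to a common library total) in each group except VFDM COMBO, where 12 were. Dnmt3a checked the labels: it read 162 to 297 CPM in VF V and 109 to 120 in VFDM V, and in VFDM IFN it read 104, 111 and 102 in libraries 1, 2 and 4 but 162 in library 3, inside the VF IFN range of 160 to 178. CreERT2, the row of the inducible Cre, read 113 CPM in that library, just above the VF IFN range of 79.2 to 104. It read 212 to 244 in the other VFDM IFN libraries. By both rows the library labelled VFDM IFN 3 stood nearer VF IFN than the rest of its group, for a reason that was not tested. The members' results under IFN in VFDM are therefore given with and without it.

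The members lie between positions 173350879 and 174031810 of chromosome 1 (GRCm38), a span of 681 kb, and Aim2 stands at one end and Ifi205 at the other. In the table they are keyed by Ensembl gene, Ifi204 as ENSMUSG00000073489 (173747293 to 173766943), Ifi213 as ENSMUSG00000073491 (173566283 to 173599274), Mndal as ENSMUSG00000090272 (173849126 to 173942491) and Ifi211 as ENSMUSG00000026536 (173896345 to 173913046), all on the minus strand. Ifi203 (173920407 to 173942672), Ifi202b (173962568 to 173982744), Ifi205 (174011998 to 174031810) and Ifi207 (173723427 to 173741747) lie on the minus strand too, and Aim2 (173350879 to 173466040) and Ifi209 (173630917 to 173647928) on the plus strand. Ifi206, Ifi214, Ifi208 and the pseudogene Ifi203-ps lie among them and are not members. The genes resemble one another in sequence, which limits how reads can be told apart. Of the 50-base words of Ifi211 exons, 72.8% occur in another gene of the cluster, against 33.4% for Ifi209, 19.2% for Ifi204, 18.6% for Ifi205, 17.7% for Mndal, 15.6% for Ifi213, 12.2% for Ifi203, 5.39% for Ifi207 and 0 for Aim2 and Ifi202b. Mndal is annotated across Ifi211 and into Ifi203, with 37 exon bases inside Ifi203 exons. The sources used here do not give how reads with several positions were counted, so values of all members but Aim2 and Ifi202b carry that uncertainty, Ifi211 the most by this measure.

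The promoters are shown because Ifi213 and Ifi208, which share a long stretch near the start, had opposite genotype orders under vehicle. Those of Mndal, Ifi203, Ifi211 and Aim2 are shown beside them. Each line holds 250 bases before and 50 after the RefSeq start (GRCm38.p6), 5′ to 3′ on the gene's strand, and capitals mark the word GAAA, any 2 bases, GAAA, the core of the interferon-stimulated response element, searched on both strands.
Ifi213 (chr1:173599223-173599522, minus strand): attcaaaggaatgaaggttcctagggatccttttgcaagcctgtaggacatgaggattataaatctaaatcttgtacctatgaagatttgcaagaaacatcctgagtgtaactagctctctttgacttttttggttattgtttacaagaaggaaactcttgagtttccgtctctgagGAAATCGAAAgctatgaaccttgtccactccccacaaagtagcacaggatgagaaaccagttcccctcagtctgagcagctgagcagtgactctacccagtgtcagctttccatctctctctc
Ifi208 (chr1:173673415-173673714, plus strand): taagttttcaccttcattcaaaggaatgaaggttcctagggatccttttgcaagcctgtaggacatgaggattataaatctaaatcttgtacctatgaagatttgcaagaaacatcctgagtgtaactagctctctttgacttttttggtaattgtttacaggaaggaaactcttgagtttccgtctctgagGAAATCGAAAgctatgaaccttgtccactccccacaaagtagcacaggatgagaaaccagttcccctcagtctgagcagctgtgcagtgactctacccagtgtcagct
Mndal (chr1:173880138-173880437, minus strand): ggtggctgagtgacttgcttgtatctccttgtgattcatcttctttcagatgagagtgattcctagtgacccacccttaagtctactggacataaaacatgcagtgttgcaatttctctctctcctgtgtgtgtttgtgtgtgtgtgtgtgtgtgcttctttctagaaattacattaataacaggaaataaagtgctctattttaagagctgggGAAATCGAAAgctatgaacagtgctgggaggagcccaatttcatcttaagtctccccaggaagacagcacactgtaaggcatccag
Ifi203 (chr1:173942443-173942742, minus strand): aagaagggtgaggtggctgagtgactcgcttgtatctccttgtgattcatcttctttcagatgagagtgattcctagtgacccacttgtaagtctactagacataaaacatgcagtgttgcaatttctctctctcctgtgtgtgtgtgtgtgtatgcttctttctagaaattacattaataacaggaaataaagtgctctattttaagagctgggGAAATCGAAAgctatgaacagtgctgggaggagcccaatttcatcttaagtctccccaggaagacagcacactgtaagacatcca
Ifi211 (chr1:173912997-173913296, minus strand): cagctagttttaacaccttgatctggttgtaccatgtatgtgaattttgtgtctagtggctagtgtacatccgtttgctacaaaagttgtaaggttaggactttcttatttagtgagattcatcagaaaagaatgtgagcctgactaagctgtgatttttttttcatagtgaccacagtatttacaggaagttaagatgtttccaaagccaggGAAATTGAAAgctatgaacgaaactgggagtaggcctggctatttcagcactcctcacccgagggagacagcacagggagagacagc
Aim2 (chr1:173420354-173420653, plus strand): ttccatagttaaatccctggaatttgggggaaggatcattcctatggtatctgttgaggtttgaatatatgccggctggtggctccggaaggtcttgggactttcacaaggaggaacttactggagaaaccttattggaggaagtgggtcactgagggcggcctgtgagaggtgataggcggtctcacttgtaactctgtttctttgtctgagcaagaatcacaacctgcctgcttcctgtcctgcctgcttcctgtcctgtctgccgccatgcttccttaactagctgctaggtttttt

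The word was found before the start of Ifi213, Mndal, Ifi203 and Ifi211, at 63, 26, 25 and 27 bases from the start, and in the non-member Ifi208 at 48. It is absent from the Aim2 window and from those of Ifi209 and Ifi202b, which says only that these letters are not in those bases. Ifi209 passed the test with IFN in VF and Aim2 did not. Ifi205, whose window holds 2 such words, did not pass that test either. Ifi204 had no promoter entry. Of the 9 members with a promoter entry, 6 held the word in at least 1 window, as did 3 of 3 other cluster genes, against 3.44% of 32851 promoters of the same length. The longest stretch that Ifi213 and Ifi208 share in these windows is 135 bases, and for Ifi203 and Mndal it is 139. Ifi203 and Mndal each have another RefSeq window, not shown, which lacks the word for Ifi203 and holds it for Mndal. A match is a description of letters and not a measured binding site.

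Levels between genes were compared as CPM per kb of exon. In VF V, Ifi203 (26.7 ± 11.8, SD, n = 4) and Mndal (26.7 ± 9.79) stood highest and did not differ beyond their spread, and Aim2 followed at 9.98 ± 1.31. The other members were far lower, with Ifi211 at 0.706 ± 0.342, Ifi204 at 0.312 ± 0.118, Ifi205 at 0.198 ± 0.0792 and Ifi213 at 0.193 ± 0.108, where each overlaps the next within its spread, then Ifi209 at 0.0352, Ifi207 at 0.0286 and Ifi202b at 0. In VFDM V the order of the level per kb was Mndal (58.8 ± 4.79), Ifi203 (32.8 ± 2.71), Aim2 (20.3 ± 1.87), Ifi204 (10.3 ± 1.48), Ifi211 (8.34 ± 1.32) and Ifi205 (1.26 ± 0.153), followed by Ifi202b, Ifi207 and Ifi209 at 0.152 or less, with Ifi213 at 0. Ifi213 thus stood above Ifi209, Ifi207 and Ifi202b in VF V and below each of them in VFDM V. In bulk RNA a smaller share of cells and less RNA per cell cannot be told apart.

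**Figure D1:**
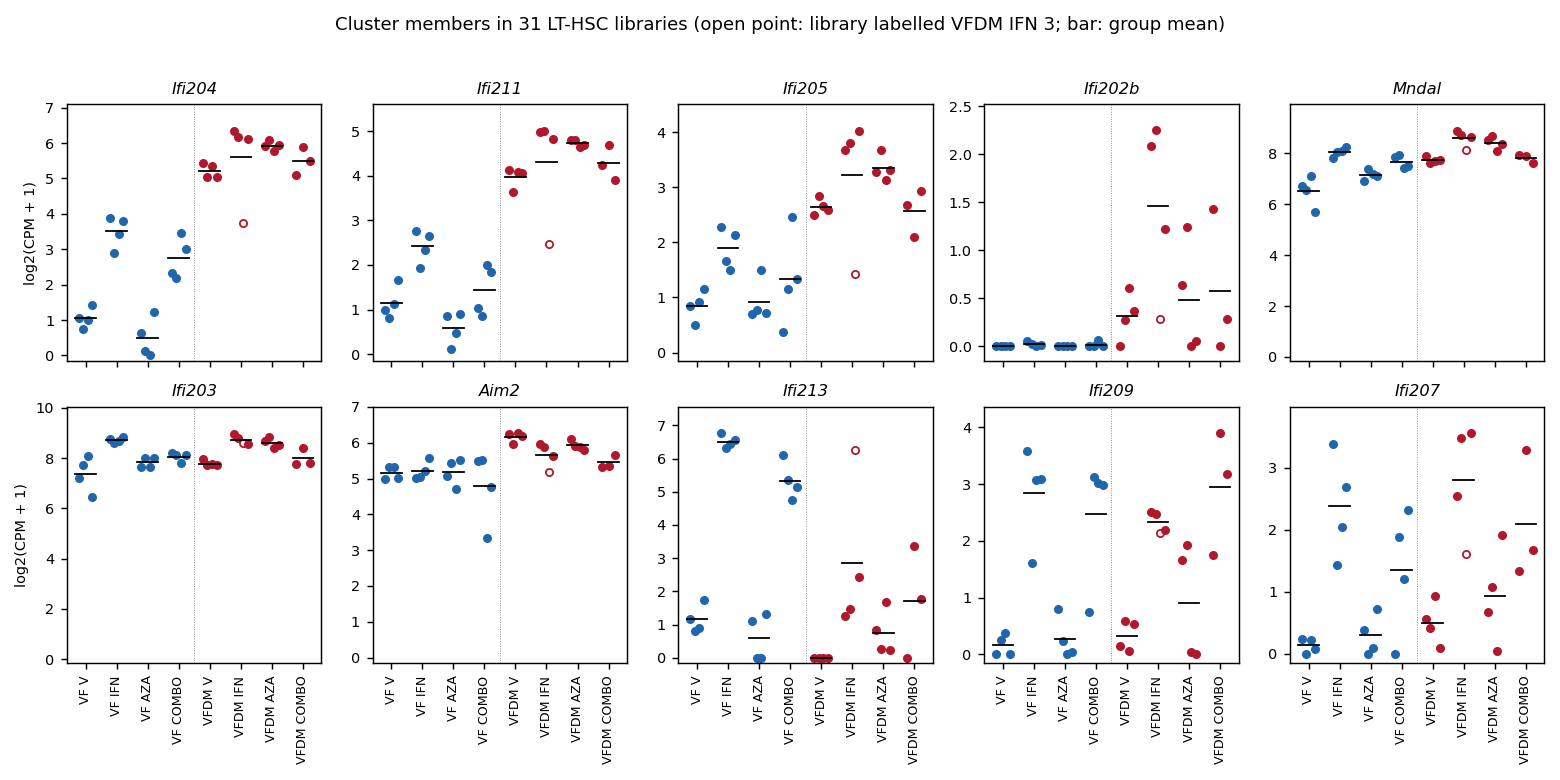
Level of the 10 members in every library, as log2(CPM + 1) with a separate vertical axis for each gene; horizontal positions are the 8 groups, each point is a library, bars are group means, and the open point is the library labelled VFDM IFN 3. Ifi204 and Ifi211 lie higher in VFDM than in VF under vehicle, and Ifi213 lies at 0 in VFDM V and at 78.4 to 107 CPM in VF IFN.

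Ifi204, the DNA sensor, gave the widest genotype gap among the members that were detected in both genotypes under vehicle. It read 1.09, 0.668, 1 and 1.68 CPM in VF V and 42.2, 32.1, 39.7 and 32 in VFDM V. All VFDM V libraries lay above all VF V libraries, and the means were 36.5 ± 5.25 and 1.11 ± 0.42 (SD, n = 4), a 32.9-fold difference. Under AZA the VF libraries read 0.553, 0.0879, 0 and 1.34 CPM and the VFDM libraries 59.5, 66.9, 53.6 and 61. That gap in means was 122-fold. Under COMBO the VF libraries read 3.98, 3.55, 10.1 and 7.02 CPM and the VFDM libraries 33.2, 58.8 and 44.4, 7.38-fold apart and without overlap.

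Under IFN the Ifi204 levels were 13.8, 6.39, 9.85 and 13 CPM in VF and 79.6, 71.6, 12.5 and 68.9 in VFDM. The low value is the library labelled VFDM IFN 3, which sits inside the VF IFN range. The means differed 5.41-fold with it and 6.82-fold without it (73.4 ± 5.6 CPM, n = 3).

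Ifi211, a close sequence relative of Ifi205, had the same order of genotypes. It read 0.976, 0.755, 1.17 and 2.14 CPM in VF V and 16.6, 11.4, 15.9 and 15.7 in VFDM V, 11.8-fold apart in the means with no overlap. The fold between means was 48 under AZA and 10.1 under COMBO, again with no overlap. Under IFN it was 5.24 with library VFDM IFN 3 (4.53 CPM) and 6.64 without it. Ifi205 read 0.41 to 1.22 CPM in VF V and 4.66 to 6.15 in VFDM V, a 6.38-fold difference of means without overlap, and 9.84-fold under AZA. Its COMBO libraries overlapped between genotypes.

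Mndal and Aim2, expressed well in both genotypes, differed less in fold. Mndal read 105, 94, 137 and 51.4 CPM in VF V and 238, 197, 207 and 211 in VFDM V, 2.2-fold apart in the means. Its libraries did not overlap under AZA either (2.42-fold), while under COMBO they did (1.1-fold). Aim2, the inflammasome sensor, read 30.5, 39, 38.9 and 31.4 CPM in VF V and 75.1, 61.5, 75.6 and 72 in VFDM V, 2.03-fold apart. Under AZA the difference of its means was 1.67-fold without overlap, and under COMBO the libraries overlapped. Ifi203 overlapped between the genotypes under vehicle, IFN and COMBO, with means 1.23-fold and 1.01-fold higher in VFDM under vehicle and IFN and 1.03-fold higher in VF under COMBO, and under AZA stood at 392 ± 51.8 CPM in VFDM against 229 ± 34.3 in VF.

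Ifi213 ran the other way. It read 1.26, 0.755, 0.879 and 2.37 CPM in VF V and 0 counts in each of the 4 VFDM V libraries. A count of 0 over that group allows up to 0.018 CPM, so VF V was at least 73.1-fold higher. Under IFN it read 107, 78.4, 85.8 and 92.4 CPM in VF and 1.38, 1.77, 75.3 and 4.42 in VFDM, where the high value is again library 3. The VF mean was 4.39-fold the VFDM mean with that library and 36-fold without it. Under COMBO the levels were 68.3, 39.7, 25.7 and 34 CPM in VF and 0, 9.32 and 2.45 in VFDM. These intervals and floors cover counting error only.

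**Figure D2:**
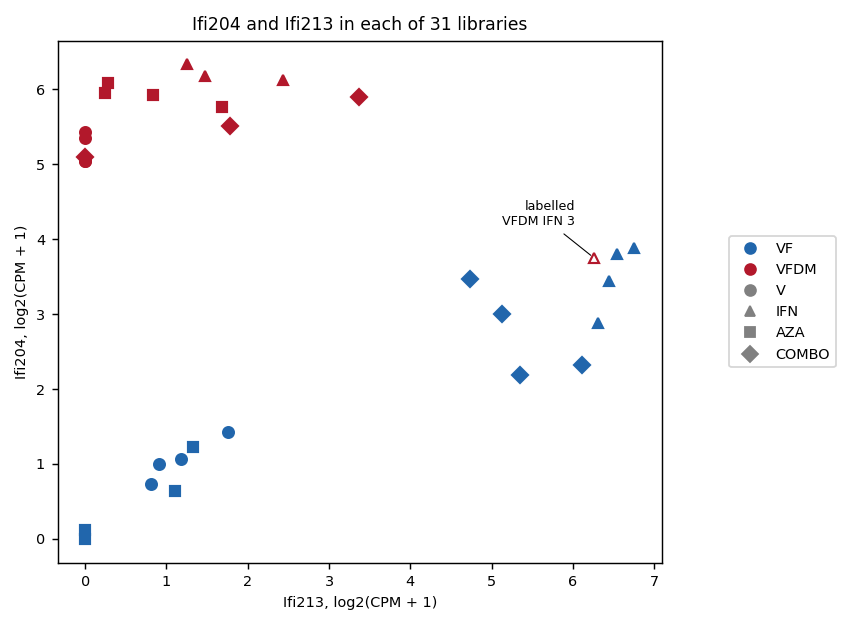
Ifi204 (vertical) against Ifi213 (horizontal) in each library, both as log2(CPM + 1), with genotype and treatment marked for each point. VF libraries under IFN and COMBO lie high in Ifi213, and the VFDM libraries other than the 1 labelled VFDM IFN 3 lie high in Ifi204. That library (12.5 CPM of Ifi204, 75.3 of Ifi213) lies beside the VF IFN libraries. It is inside their range of Ifi204 and just below their Ifi213 range of 78.4 to 107 CPM.

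Ifi202b, whose product lacks the pyrin domain, was close to absent from VF: 4 reads over all 16 libraries, with 12 at 0. In VFDM it reached 464 reads over 15 libraries. It read 3.26, 3.76, 0.215 and 1.34 CPM in VFDM IFN and at most 0.0368 in VF IFN, so the libraries of those 2 groups did not overlap. Ifi209 and Ifi207 overlapped between genotypes under all 4 treatments. Under vehicle Ifi209 was at 0.305 CPM or less in VF and 0.503 or less in VFDM.

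Over the members, the libraries of the genotypes did not overlap in the direction of higher VFDM for 5 of 10 under vehicle, against 6.34% of all tested rows, and in the lower direction for 1, against 6.87%. Under AZA 6 were higher, against 2.35%. Under COMBO 2 were higher, against 3.63%, and 1 was lower, against 4.6%. Under IFN 1 was higher, against 1.7%, and 1 lower, against 2.9%. Without library VFDM IFN 3 these became 6 higher, against 3.79%, and 1 lower, against 6.18%. Nothing is read from these counts, since genotype differences chose the family. The low-level members Ifi202b and Ifi213 passed the filter on reads through the groups where they are high. Ifi207 and Ifi209 were low in both vehicle groups and passed it mainly through treated groups.

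The other genes between them followed both orders. Ifi208 read 1 count in all over VF V and 0.308 to 0.806 CPM in VFDM V, and under IFN 0.142 to 0.413 CPM in VF and 11.2, 8.81, 0.15 and 5.76 in VFDM. Ifi206 had the order of Ifi213, with 38.6 to 49.1 CPM in VF IFN and 3.65, 4.05, 35.9 and 1.91 in VFDM IFN. Ifi203-ps read 5.73 to 8.95 CPM in VF V and 18.1 to 21.4 in VFDM V. Library VFDM IFN 3 was nearer the VF IFN mean than the mean of the other VFDM IFN libraries for 9 of the 10 members and for 13 of the 14 cluster genes. It lay inside the VF IFN range for 7 members and inside the range of the other VFDM IFN libraries for 1, Ifi203.

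Genes up to 5 Mb on either side of the cluster gave the surroundings. Of 129 flanking rows, the libraries did not overlap between genotypes for 20.9% under vehicle, 6.98% under IFN, 6.98% under AZA and 10.9% under COMBO. Over all tested rows the shares were 13.2%, 4.59%, 4.5% and 8.23%. Without library VFDM IFN 3 the shares under IFN were 14.7% of the flanking rows and 9.97% of all tested rows. The flanking rows' median absolute log2 difference under vehicle was 0.44, beside 0.36 for all tested rows and 2.42 for the members, which is the same with Ifi213 and Ifi202b set at their lower bounds. Cd244a, a SLAM family receptor 1741 kb before the cluster, averaged 11 ± 4.36 CPM in VF V and 2.04 ± 0.895 in VFDM V. Its VFDM IFN level was 8.49 in library 3, and the highest of that group. Slamf1 and Cd48, which encode the sort markers CD150 and CD48, lie on the same side at 1550 and 1646 kb, and Slamf1 averaged 34.8 ± 10.1 CPM in VF V and 75 ± 14 in VFDM V.

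**Figure D3:**
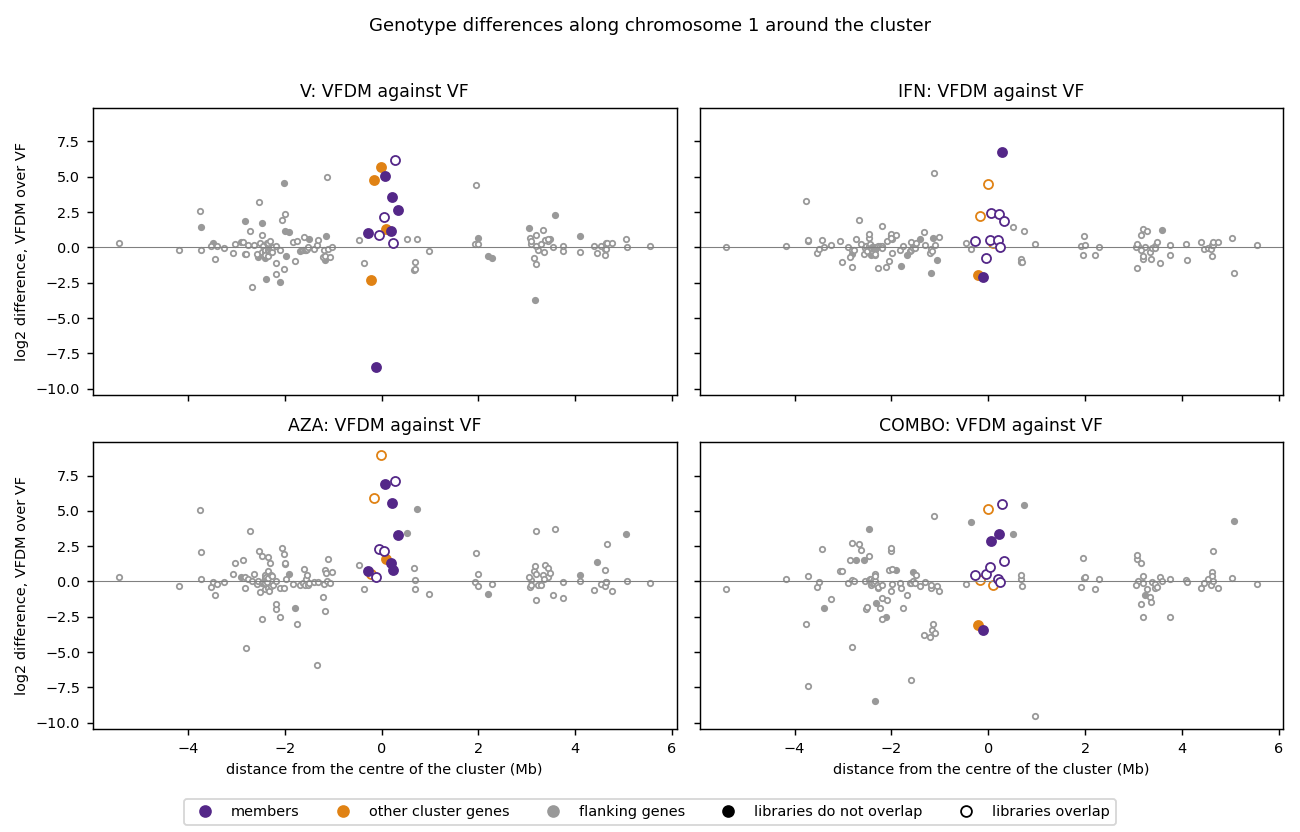
Fitted log2 difference of VFDM over VF for every tested row on chromosome 1 within 5 Mb of the cluster, against distance from its centre in Mb, in 1 panel per treatment; filled points are rows whose libraries do not overlap between genotypes, and the position of a gene at 0 counts in 1 genotype depends on the model. Cluster genes spread widely under vehicle, with a median absolute value of 2.42 for members and 0.44 for the 129 flanking rows.

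Other measures moved with the genotype. CreERT2 read 86.8 to 173 CPM in VF V and 198 to 244 in VFDM V, and the GFP row 110 to 325 and 355 to 412. The summed LT-HSC markers read 2175 to 2398 CPM in VF V and 2848 to 3131 in VFDM V, without overlap. The part of these measures in the differences was not tested. Of the 13 monocyte, macrophage and dendritic markers, 3 were at 1 CPM or more in VF V and 5 in VFDM V, and their summed level was 106 to 148 CPM in VF V and 95.4 to 118 in VFDM V. Siglech was at 0 in all VF V libraries.

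The IFN comparisons asked how the cluster responded to interferon within each genotype. In VF, 7 of the 10 members rose with IFN, against 1.27% of all tested rows that rose (edgeR quasi-likelihood test, Benjamini-Hochberg adjusted p under 0.05 over 22172 rows). The 7 were Ifi213, Ifi207, Ifi209, Ifi204, Ifi211, Mndal and Ifi203. Of these, Ifi207 and Ifi209 held only 13 and 26 counts over VF V. They came into the test mainly through reads of treated groups, which limits what their calls add to the count. The median log2 fold change was 2.15 over the members, 1.84 without Ifi202b, and -0.02 over all rows. Without correction 8 members had a p under 0.05, and DESeq2 called 8. Counts by unadjusted p or DESeq2, here and below, have no share of all rows beside them, so nothing is read from them. The monocyte, macrophage and dendritic markers, of which 1 rose, summed to 113 to 225 CPM in VF IFN against 106 to 148 in VF V, and the neutrophil markers to 76 to 307 against 37.5 to 71; their part in the response was not tested.

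Ifi213 moved furthest in VF. Its mean went from 1.32 ± 0.736 to 90.9 ± 12.2 CPM (SD, n = 4), 69-fold, with every IFN library above every vehicle library (fitted log2 fold change 6.16 ± 1.48, SE, edgeR adjusted p = 0.0267). Ifi204 rose 9.68-fold, to 10.8 ± 3.37 CPM (3.32 ± 0.59, adjusted p = 0.000851), which left it below every VFDM V library. Mndal rose 2.75-fold, from 96.9 ± 35.5 to 266 ± 32.1 CPM (1.46 ± 0.19, adjusted p = 5.12e-06). Ifi203, with Mndal the highest of the members, rose 2.37-fold from 179 ± 78.8 to 425 ± 30.6 CPM (1.24 ± 0.20, adjusted p = 0.000141).

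The members that were near 0 under vehicle also rose in VF. Ifi209 read 0 to 0.305 CPM in VF V and 10.9, 2.05, 7.45 and 7.52 in VF IFN (adjusted p = 0.0175). Ifi207 read 0 to 0.172 and 9.38, 1.7, 3.13 and 5.43 (adjusted p = 0.0199). Ifi211 read 5.74, 2.84, 4.04 and 5.24 CPM in VF IFN, 3.54-fold the VF V mean (adjusted p = 0.0432). The vehicle and IFN libraries did not overlap for any of the 3. Leaving out VF V library 1 or VF IFN library 1 ended the calls of Ifi213, Ifi207, Ifi209 and Ifi211 alike (edgeR adjusted p = 0.0513 to 0.139). VF V library 2 ended those of Ifi213, Ifi207 and Ifi211, library 3 that of Ifi211, and library 4 those of Ifi213, Ifi207 and Ifi209, as did VF IFN library 3 for Ifi211 and library 4 for Ifi213 and Ifi211 (adjusted p = 0.0524 to 0.118). Ifi204, Mndal and Ifi203 kept their calls in all 15 alternatives run.

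Aim2 and Ifi205 did not pass the test in VF IFN. Aim2 read 31.5, 31.9, 36 and 47 CPM against 30.5 to 39 in VF V, within the spread (log2 fold change 0.07 ± 0.27, edgeR adjusted p = 0.988). Ifi205 read 3.86, 2.15, 1.83 and 3.36 CPM, above all VF V libraries (1.77 ± 0.64, adjusted p = 0.166). Among the non-members, Ifi206 rose (6.07 ± 1.07, adjusted p = 0.000893), as did Ifi203-ps (2.36 ± 0.29, adjusted p = 1.13e-06) and Ifi214 (6.03, adjusted p = 0.0217). Few reads lie behind the vehicle level of Ifi214, and its call was lost without VF V library 1, 2 or 4 or VF IFN library 2 (adjusted p = 0.0523 to 0.0959).

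In VFDM, 3 members rose with IFN, against 0.916% of all tested rows: Ifi203, Mndal and Ifi213. The median log2 fold change was 0.96 over the members (1.17 without library 3) and -0.01 over all rows; Ifi213, at 0 counts under vehicle, is the highest of the members in each VFDM response, so its lower bound in place of the fitted value leaves the medians as they are. Ifi209 read 4.07 ± 0.671 CPM (SD) against 0.272 ± 0.234 under vehicle, 14.9-fold, and Ifi207 6.95 ± 4.21 against 0.442 ± 0.351, 15.7-fold. Both stood above every vehicle library without passing the edgeR test on all groups. They were called in the fit on only VFDM V and VFDM IFN, and without the 8 libraries under 20000 detected rows. With DESeq2, 5 were called, Ifi209 and Ifi207 among them. Ifi203 rose 1.95-fold, from 220 ± 18.2 to 429 ± 57.8 CPM (0.96 ± 0.20, edgeR adjusted p = 0.00559). Mndal rose 1.83-fold, reading 463, 424, 282 and 393 CPM against 197 to 238 under vehicle (0.87 ± 0.19, adjusted p = 0.0107). For Mndal, leaving out VFDM V library 2 or 3 or VFDM IFN library 1 ended the call (adjusted p = 0.0521 to 0.0698).

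Ifi213 went from 0 counts to a mean of 20.7 ± 36.4 CPM in VFDM IFN, at least 1150-fold, most of it from library 3 (edgeR adjusted p = 0.00912). Without that library the mean was 2.52 ± 1.65 CPM (n = 3), at least 140-fold above the vehicle floor (adjusted p = 0.034). VFDM IFN libraries 1, 2 and 4 thus read 1.38 to 4.42 CPM under interferon, beside 0.755 to 2.37 in VF V without it. Fitted on the VFDM V and IFN groups alone, the call was lost (adjusted p = 0.187). Without library 3 Mndal and Ifi203 kept their calls, at 1.0 ± 0.19 (adjusted p = 0.00322) and 1.01 ± 0.21 (adjusted p = 0.00976), where 0.746% of 22122 rows rose.

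Ifi204 was already high in VFDM V and did not pass the test with IFN (0.67 ± 0.51, edgeR adjusted p = 1). Without library 3 its VFDM IFN libraries read 68.9 to 79.6 CPM, 2.01-fold the vehicle mean and above all vehicle libraries (1.01 ± 0.47, adjusted p = 0.838). Ifi211 likewise stood 1.99-fold above its vehicle mean without library 3. Aim2 read 61.7, 57.7, 35.3 and 48.9 CPM in VFDM IFN against 61.5 to 75.6 in VFDM V, and did not pass the test (-0.48 ± 0.27, adjusted p = 0.986; -0.34 ± 0.29 and 1 without library 3). Ifi206 rose (6.47 ± 1.14, adjusted p = 0.00124; 4.64 ± 0.91 and 0.00458 without library 3).

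**Figure D4:**
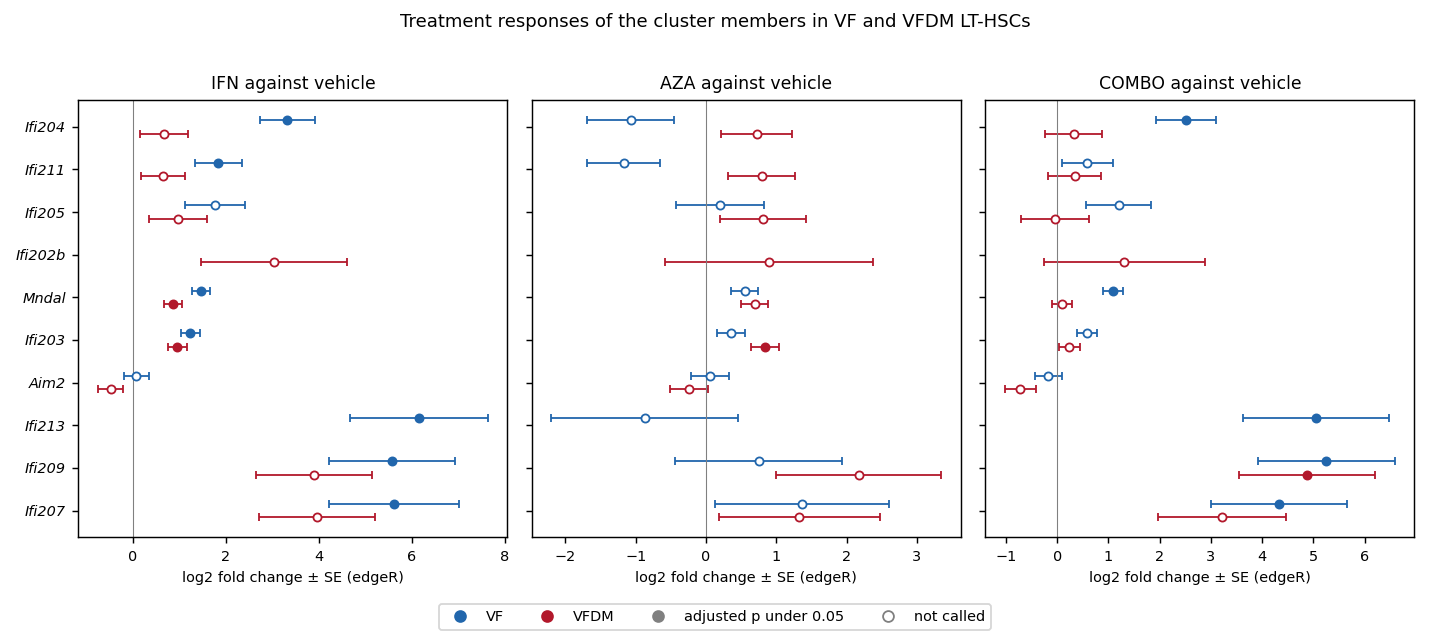
Fitted log2 fold change against vehicle of the same genotype for each member under IFN, AZA and COMBO, with SE as bars, VF in blue and VFDM in red; filled points have an edgeR adjusted p under 0.05. Ifi213 in VFDM and Ifi202b in VF are not drawn because their vehicle groups hold no or few reads; 7 members are filled for VF IFN.

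AZA, an inhibitor of DNA methyltransferases, was given alone in both genotypes. In VF no member passed the edgeR test, against 1.2% of all tested rows called in either direction; 2 members had an unadjusted p under 0.05, and DESeq2 called 0. The members' median log2 fold change was 0.12, and -0.07 over all rows. Ifi204 read 0.553, 0.0879, 0 and 1.34 CPM, overlapping VF V. Ifi213 read 1.15, 0, 0 and 1.5 CPM, overlapping too. Mndal stood at 142 ± 19 CPM beside 96.9 ± 35.5 under vehicle.

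In VFDM 1 member rose with AZA, Ifi203, against 0.852% of all tested rows, and the members' median log2 fold change was 0.82 beside -0.04 over all rows. Ifi203 read 407, 456, 335 and 370 CPM against 247, 210, 214 and 208 under vehicle, 1.78-fold (0.84 ± 0.20, edgeR adjusted p = 0.0269). That call was lost without VFDM V library 2, 3 or 4 or VFDM AZA library 2 (adjusted p = 0.079 to 0.104). Mndal read 366, 404, 275 and 330 CPM, above all vehicle libraries, and did not pass (0.69 ± 0.19, adjusted p = 0.0786). Ifi204 (53.6 to 66.9 CPM), Ifi211 (24.2 to 26.9) and Ifi205 (7.72 to 11.8) were also above every VFDM V library without passing the test on all groups. In the fit on only VFDM V and VFDM AZA, Ifi204, Ifi211 and Mndal were called along with Ifi203. The spread in the fit on all groups includes the library labelled VFDM IFN 3, whose part in these AZA results was not tested. Ifi213 read 0.78, 0.211, 2.22 and 0.189 CPM, at least 47.2-fold above the vehicle floor (adjusted p = 0.273). Of the other cells' markers, 4 of 12 erythroid and 1 of 10 megakaryocyte markers rose in VFDM AZA. Their sums were 479 to 1122 CPM against 488 to 515 in VFDM V for the erythroid list and 898 to 1009 against 264 to 542 for the megakaryocyte list, and their part was not tested.

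COMBO gave both drugs. In VF, 5 members rose against vehicle, against 4.16% of all tested rows: Ifi213, Ifi209, Ifi207, Ifi204 and Mndal. The limit given for Ifi207 and Ifi209 under IFN holds here too. The median log2 fold change was 1.59 over the members and -0.11 over all rows. Ifi213 read 68.3, 39.7, 25.7 and 34 CPM, 31.8-fold the vehicle mean (5.05 ± 1.42, edgeR adjusted p = 0.0317). Ifi209 read 0.678, 7.68, 7.15 and 6.87 CPM (5.25 ± 1.34, adjusted p = 0.0124). Ifi204 rose 5.54-fold (2.51 ± 0.58, adjusted p = 0.00693). Mndal rose 2.13-fold, to 206 ± 37.3 CPM (1.09 ± 0.19, adjusted p = 0.000432).

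Some of these calls were fragile. Ifi207 (4.33 ± 1.33, edgeR adjusted p = 0.0381; 0 to 3.99 CPM) was lost without VF V library 1, 2 or 4 or VF COMBO library 2 or 4 (adjusted p = 0.055 to 0.112). Ifi213 was lost without any 1 of the VF V libraries (0.0636 to 0.0787), and Ifi209 without VF V library 4 (0.0522). Fitted on VF V and VF COMBO alone, Ifi204, Mndal and Ifi209 lost their calls (adjusted p = 0.164, 0.0844 and 0.0952). Ifi203 stood at 267 ± 29.1 CPM and did not pass (0.58 ± 0.20, adjusted p = 0.0638). VF COMBO libraries 1 to 3 are among the 8 libraries with fewer than 20000 detected rows. Leaving out the 8 keeps only library 4 of that group, so their part in these values was not tested.

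In VFDM, 2 members rose with COMBO, Ifi209 and Ifi213, against 5.52% of all tested rows. Over VFDM V they held 44 and 0 counts, so both came into the test through other groups. The members' median log2 fold change was 0.33, and -0.08 over all rows. Ifi209 read 2.37, 13.9 and 8.03 CPM against 0.0439 to 0.503 under vehicle, 29.7-fold (4.88 ± 1.33, edgeR adjusted p = 0.00998). Ifi213 read 0, 9.32 and 2.45 CPM, at least 218-fold above the vehicle floor (adjusted p = 0.00978), and lost the call without VFDM COMBO library 3 (0.0588). Aim2 read 39.1, 40 and 49.9 CPM, below all VFDM V libraries, and did not pass (-0.72 ± 0.30, adjusted p = 0.0959). It passed in the fit on VFDM V and VFDM COMBO alone (-0.71, adjusted p = 0.00511) and without the libraries of few detected rows (-0.64, adjusted p = 0.032). Ifi213 had too few reads to be tested in the first of these and lost its call in the other (adjusted p = 0.0898).

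The cells of VFDM COMBO also differed in their markers. Of 14 LT-HSC markers 9 fell, against 10.5% of all tested rows, with summed levels of 1441 to 1851 CPM against 2848 to 3131 in VFDM V. Of 12 erythroid markers 11 rose, against 5.52% of all tested rows, with sums of 2349 to 20950 CPM against 488 to 515. Of 9 tested neutrophil markers 5 rose, and the list summed to 646 to 1611 CPM against 34.1 to 98.4. Of 8 tested T and NK markers 3 rose, and of 10 megakaryocyte markers 2. Of 7 tested B markers 3 rose and 1 fell, and of 12 tested monocyte, macrophage and dendritic markers 3 rose and 1 fell. In VF COMBO 3 of the 14 LT-HSC markers fell, against 4.13% of all tested rows, and 2 rose. In VF COMBO 4 of 12 erythroid markers rose, against 4.16% of all tested rows, with sums of 443 to 1219 CPM against 248 to 538 in VF V. So did 3 of 8 tested T and NK markers, with sums of 20.6 to 148 CPM against 4.65 to 13.9. Of the rest, 1 B and 2 megakaryocyte markers rose, and 1 monocyte, macrophage and dendritic marker rose and 1 fell. The part of these markers' cells in the cluster's COMBO values was not tested. Under VFDM IFN 4 neutrophil markers rose, with and without library 3, against 0.916% and 0.746% of all tested rows, and the list summed to 95.6 to 586 CPM. The megakaryocyte list was higher under IFN in both genotypes. It summed to 1332 to 1700 CPM in VF IFN against 407 to 596 in VF V, and to 843 to 1687 in VFDM IFN against 264 to 542 in VFDM V.

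Set against IFN alone, COMBO was lower for Ifi203 and Mndal in VFDM, 2 members against 6.28% of all tested rows that were lower. Ifi203 read 219, 335 and 223 CPM against 375 to 503 under IFN (-0.73 ± 0.22, edgeR adjusted p = 0.031). Mndal read 244, 240 and 197 CPM against 282 to 463 (-0.78 ± 0.21, adjusted p = 0.0148). Neither overlapped, and without VFDM IFN library 3 the values were -0.77 (adjusted p = 0.0389) and -0.91 (adjusted p = 0.00591). Leaving out other single libraries ended both calls, for Ifi203 without VFDM IFN 1, 2 or 4 or VFDM COMBO 2 or 4 (adjusted p = 0.0553 to 0.191), and for Mndal without VFDM IFN 1, 2 or 4 or any 1 VFDM COMBO library (0.0501 to 0.132). In VF no member differed between COMBO and IFN by the edgeR test, against 0.00902% of all tested rows, with 2 members at an unadjusted p under 0.05 and 0 called by DESeq2. The IFN, AZA and COMBO comparisons of a genotype share their vehicle libraries.

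Whether a response differed between the genotypes was tested as an interaction. This contrast contains the difference between genotypes under vehicle. Since genotype differences chose the family, the members' p-values here are not independent of that choice. For IFN no member passed, against 0% of all tested rows, with 2 members at an unadjusted p under 0.05 and 0 called by DESeq2. The widest by p was Ifi204, whose log2 response was 2.65 smaller in VFDM by the fit (-2.65 ± 0.76, edgeR adjusted p = 0.424; -2.31 ± 0.68 and 0.721 without library VFDM IFN 3, where again no member passed). For AZA no member passed, against 0.582% of all tested rows, with 3 members at an unadjusted p under 0.05. DESeq2 called 1, Ifi213. Ifi211 (1.95 ± 0.71, edgeR adjusted p = 0.285) and Ifi204 (1.79 ± 0.81, adjusted p = 0.426) had larger AZA responses in VFDM that missed the threshold.

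For COMBO 1 member differed, Mndal, against 2.49% of all tested rows that were lower in VFDM. Its COMBO response was 2.13-fold in VF and 1.07-fold in VFDM, a log2 difference of -1.0 ± 0.28 (edgeR adjusted p = 0.0368). Mndal stood at 96.9 ± 35.5 CPM in VF V and 213 ± 17.4 in VFDM V. Under COMBO it stood at 206 ± 37.3 and 227 ± 25.9, so the vehicle gap enters this call. The Mndal call was lost without VF V 2 or 4, VF COMBO 1 or 2, or any 1 VFDM V or VFDM COMBO library (adjusted p = 0.0532 to 0.108). Fitted on only the groups compared, Ifi204 was called in place of Mndal. The pseudogene Ifi203-ps, which lies beside Mndal, differed in the same direction (-1.55 ± 0.41, adjusted p = 0.0259), and lost the call without VF V 4, VF COMBO 1, VFDM V 1 or VFDM COMBO 2 or 4 (0.05 to 0.0694).

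The cluster's responses stood beside those of 20 reference genes of the type I interferon response. With IFN 18 of the 20 rose in VF and 19 in VFDM (18 without library 3). With AZA 1 rose in VF, against 0.293% of all tested rows, and 19 rose in VFDM, and for 16 the AZA response was larger in VFDM by the interaction test, against 0.564%. Irf7, which encodes an interferon regulatory factor, stood at 15.2 ± 5.46 CPM in VF V and 12.5 ± 6.19 in VF AZA, and at 12.5 ± 3.06 in VFDM V and 141 ± 20.3 in VFDM AZA (interaction 3.77 ± 0.43, edgeR adjusted p = 3.89e-06). With COMBO 18 rose in each genotype, and Ifi27 fell in VFDM (-1.20 ± 0.25, adjusted p = 0.000812).

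The responses of 23 genes of DNA sensing and the inflammasome, the pathways in which AIM2 and IFI204 act, were counted beside those of all tested rows. With IFN 4 of the 23 rose in VF, against 1.27% of all tested rows. They were Irf7, Zbp1, which senses Z-form nucleic acids (2.74 ± 0.22), Casp4, an inflammatory caspase (1.19 ± 0.22), and Samhd1, which degrades nucleotides (0.81 ± 0.15). In VFDM Irf7 and Zbp1 rose with IFN, against 0.916% of all tested rows (2 of the list also without library 3, against 0.746%). The same 2 rose with AZA, against 0.852%. In VF none passed with AZA, against 1.2% of all tested rows in either direction. With COMBO those 4 rose in VF, against 4.16%. In VFDM COMBO 4 rose and 3 fell, where 5.52% of all tested rows rose and 10.5% fell. Those that rose in VFDM COMBO were Irf7, Zbp1, Il1b, an inflammasome-processed cytokine (7.71 ± 1.95, edgeR adjusted p = 0.00557), and Cgas, the cytosolic DNA sensor (0.93 ± 0.31, adjusted p = 0.0376). Tmem173, which encodes STING, fell from 37 ± 4.96 to 5.4 ± 3.96 CPM (-2.77 ± 0.42, adjusted p = 1.59e-05). Il18, another cytokine that inflammasomes process, had 0 counts in all 3 VFDM COMBO libraries and 7.06 ± 0.794 CPM in VFDM V, and Ikbke, a kinase of the interferon pathway, fell too (-1.52 ± 0.35, adjusted p = 0.00224). Pycard, the inflammasome adaptor, did not pass in that comparison (-0.41 ± 0.38, adjusted p = 0.542).

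By Pearson correlation of log2 CPM over the 31 libraries, which share groups and depth, the genes most like Ifi204 outside the cluster were Myom1 (r = 0.90, chromosome 17), Gm15446 (0.85, chromosome 5), Klf3 (0.78, chromosome 5), Gm45221 (0.76, chromosome 7) and Irf9 (0.74, chromosome 14). Myom1 averaged 6.06 ± 1.95 CPM in VF V and 28.5 ± 7.87 in VFDM V, and read 37.3 in library VFDM IFN 3, inside the VF IFN range of 31.1 to 42. Gm15446 averaged 4.49 ± 0.44 and 28.1 ± 3.02 CPM and read 6.23 in that library. For Ifi203 the most alike were Gm4070 (0.91), Gm8995 (0.91), Gvin1 (0.90) and 9130208D14Rik (0.89), all on chromosome 7, and Samd9l (0.88, chromosome 6). These are descriptions over libraries of the same groups.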

How the data were processed

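RNA of sorted bone marrow LT-HSCs was measured in 31 libraries, extracted with PicoPure and prepared with SMART-Seq Stranded per the labels. The deposited table holds raw read counts per gene made by the authors. Processing by the authors used STAR 2.7.10a, featureCounts, FastQC 0.11.5, R 4.3.0 and the mm10 build, per the submitters' processing notes. For their annotation, strand setting and treatment of multimapping reads, the status is: not given in the sources used here. Symbols, positions and exon lengths came from GENCODE vM21, and promoters from RefSeq (GRCm38.p6), where 9 of the 10 members had an entry.

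In R 4.3.3 with edgeR 4.0.16, rows were kept by filterByExpr (minimum count 10, total 15; 22172 of 55492 rows), scaled by TMM, and fitted by the robust quasi-likelihood model with 1 mean per group over all libraries. SE is the absolute log2 fold change divided by the root of F. Benjamini-Hochberg adjusted p-values over 22172 rows were called under 0.05. Levels are CPM of the TMM-scaled library. A fold against a group at 0 uses 3 counts over the group as the floor. DESeq2 1.42.0, RLE scaling, no filter, single groups, a replicate block, left-out libraries and removal of the 8 libraries under 20000 detected rows were alternatives. Replicates differed by more than sampling noise (chi-square per degree of freedom at least 20.2). The model was tested on simulated counts. The members and gene lists were chosen with earlier results of these data known. All members are named with values, of other lists up to 4 genes with the smallest p, of flanking genes up to 6 with the largest average genotype difference, and for Ifi204 and Ifi203 the 5 rows outside the cluster with the highest correlation; Cgas, Ikbke, Pycard and Ifi27 were named after their values were seen. Some named results of these lists are not reported here.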

Additional observations from a re-analysis of the deposited data

Results flagged for a closer look

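In 70 groups of 4 libraries a single library was compared with the rest, and 8 stood apart by Dixon's criterion, which chance gives for about 1 group in 20. In VFDM IFN, library 3 stood apart for Ifi204 at 12.5 CPM (others 68.9 to 79.6), for Ifi211 at 4.53 (27.2 to 31) and for Ifi213 at 75.3 (1.38 to 4.42). Ifi211 read 11.4 CPM in VFDM V library 2 (others 15.7 to 16.6), and Ifi203 read 247 in VFDM V library 1 (208 to 214). Ifi205 read 1.82 CPM in VF AZA library 3 (others 0.613 to 0.703). In VF COMBO, Ifi209 read 0.678 CPM in library 1 (6.87 to 7.68), and Ifi202b read 0.048 in library 3 with 0 in the others. That Ifi202b value is 1 read, and with the others at 0 any read would be flagged. The 70 groups include some at 0 in all libraries, which cannot be flagged. The COMBO response differed between genotypes by the interaction test for Mndal (-1.0, edgeR adjusted p = 0.0368) and for the pseudogene Ifi203-ps (-1.55, adjusted p = 0.0259). This contrast contains the genotype gap under vehicle, and genotype differences chose the family, so these p-values are not independent of that choice. Of 15 fits that left out 1 library, 11 lost the Mndal call and 5 the Ifi203-ps call. Fitted on only the groups compared, Ifi204 was called in place of Mndal.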

How the results depend on the processing

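No called result reversed under the alternatives run, and of the genotype descriptions Ifi213 under AZA changed sign with the replicate block (0.35 to -0.16 on the log2 scale); counts here are members called, unless flanking rows are named. With no filter on low counts VFDM COMBO against IFN had 1 call in place of 2. Fits on only the groups compared gave 1 for VF COMBO in place of 5 and 4 for VFDM AZA in place of 1. For the difference of the COMBO response they gave Ifi204 in place of Mndal. DESeq2 gave 5 for VFDM IFN in place of 3, 2 for VFDM AZA and 1 for the difference of the AZA response in place of 0. Without VF V libraries 1 and 4 the counts were 3 for VF IFN in place of 7 (Ifi204, Mndal and Ifi203 stayed; adjusted p = 0.157 to 0.416 by edgeR for the lost ones), 1 for VF COMBO, 2 for VFDM AZA and 0 for the difference of the COMBO response, and flanking rows without overlap under vehicle went from 27 to 49. Without the 8 libraries under 20000 detected rows, the counts were 3 for VF COMBO, 5 for VFDM IFN, 0 for VFDM AZA and 0 for the difference of the COMBO response, members without overlap under COMBO went from 3 to 9, and flanking rows without overlap were 47 under AZA and 95 under COMBO, where fewer libraries make overlap less likely.

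Leaving out 1 library at a time gave 3 to 7 calls for VF IFN, 0 to 1 for VF AZA, 2 to 6 for VF COMBO, 2 to 3 for VFDM IFN, 0 to 1 for VFDM AZA, 1 to 2 for VFDM COMBO, 0 to 2 for VFDM COMBO against IFN and 0 to 1 for the difference of the COMBO response. Members without overlap numbered 2 to 7 under IFN and 3 to 5 under COMBO, and flanking rows 30 to 38 under vehicle, 10 to 19 under IFN, 10 to 19 under AZA and 15 to 28 under COMBO. The replicate numbers did not pair the libraries: over 16 pairs of groups none had all correlations of deviations over 0.1 (-0.12 to 0.173). With the replicate block, VF COMBO had 4 calls in place of 5 (Ifi207 at an edgeR adjusted p of 0.0554), the other counts of calls were the same, and under AZA 9 in place of 10 members were higher in VFDM (Ifi213). RLE scaling shifted the median of all genes by at most 0.04 on the log2 scale. Depth limits Ifi202b, Ifi207, Ifi209 and Ifi213 in vehicle groups, where few or no reads were counted. The refit without the library labelled VFDM IFN 3 and its shares of rows were added after seeing the data.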
